A study of Danio rerio with 2 samples.

Results

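The genes described are the zebrafish enzymes and readers of histone acetylation, measured by single-cell RNA-seq of adult testis. They were taken by symbol: HDACs, sirtuins, lysine acetyltransferases (kat), p300 and CBP (ep300, crebbp), ep400, the nuclear receptor coactivators ncoa1 to ncoa3, hat1, and the brd, brdt and brpf bromodomain genes. Of 32520 features in the count matrices, 53 met this rule: 18 acetyltransferases, 8 acetyltransferase scaffolds, 12 HDACs, 7 sirtuins, 6 bromodomain and extraterminal (BET) readers and 2 readers of remodelling complexes. In the symbol table used here, 5 symbols were each shared by 2 Ensembl identifiers, which covers 10 of these genes. Those are written with the last 5 digits of the identifier (brd1_13596 is ENSDARG00000013596, crebbp_04609 ENSDARG00000104609, crebbp_12452 ENSDARG00000112452 and ep300_00666 ENSDARG00000100666), since the files do not say which is the a and which the b copy. UMIs came from the 3′ ends of transcripts, so near-identical copies may have shared reads, and the values of paralogs carry that uncertainty.

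Histones are acetylated by lysine acetyltransferases, which use acetyl-CoA, and the mark is taken off by zinc-dependent histone deacetylases (HDACs) and by the NAD-dependent sirtuins. Bromodomain proteins bind acetylated lysines and bring transcription or remodelling complexes to them. In mouse spermatids a wave of histone H4 hyperacetylation precedes the exchange of histones for protamines, and the testis-specific bromodomain protein BRDT takes part in that step. Zebrafish sperm keep their nucleosomes and carry no protamines.

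Cell suspensions were made from testes of zebrafish of the AB/Tübingen strain aged 6 months, and 2 replicate libraries were sequenced, with no treatment, so that stages of spermatogenesis within a testis are what was compared. The labels call the fish wild type in one place and transgenic in another and name no transgene. The testes came from 2 adult males, and which male went into which library is not given in the sources used here. The 7 stages were undifferentiated type A spermatogonia (SPG-Aun), differentiated type A spermatogonia (SPG-Ad), type B spermatogonia (SPG-B), primary and secondary spermatocytes (SPC-I, SPC-II), and round and elongated spermatids (SPT-r, SPT-e). For replicate 1 the stage of each of 1999 cells was the study's own annotation, while the 3819 cells of replicate 2 took the stage of their nearest annotated cells, found without the genes reported here. When annotated cells were hidden and labelled in the same way, 87.8% got their own stage back, from 41.0% in SPG-B to 97.3% in SPT-r, so SPG-B of replicate 2 is the least certain sum.

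UMIs were summed for each stage in each replicate, giving 14 sums of 693732 to 14463460 UMIs, and levels are given as CPM, the UMIs of a gene relative to all UMIs of the sum, with TMM scaling. Elongated spermatids were shallow, with 1374 and 1371 UMIs per cell at the median against 5940 to 13208 in the other stages. Of the stage markers, ddx4 and piwil1 were highest in SPG-Aun, sycp3 in SPC-I and edrf1 in SPT-e. pcna, which the study uses for proliferation and, with sycp3, for spermatocytes, was highest in SPG-Ad. It was at 1423 and 1333 CPM there and at 333 and 183 CPM in SPC-I. The genes eno3, e2f5 and ripply2, which the study gives as markers of SPG-Aun, were highest in SPG-B or SPC-I. Summed levels of somatic markers ranged from 22.4 to 289 CPM for Leydig cells, from 0 to 13.2 CPM for Sertoli cells, from 8.23 to 106 CPM for immune cells and from 0 to 0.73 CPM for blood. The immune sum joins rac2, highest in SPG-Aun, with coro1a and grap2b, both highest in SPT-e (grap2b at 40.6 and 35.3 CPM). What that sum owes to immune cells was not tested. The libraries shared 8 cell barcodes, 5 of them in cells that passed the filters. All p-values are from edgeR's quasi-likelihood test, adjusted over the 13485 genes tested, and calls of higher or lower needed an adjusted p under 0.05 with a log2 fold change beyond 1. They measure the spread between 2 libraries, and the stages of 1 library share its handling.

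Together the 53 genes took a small share of the transcriptome, lowest in SPT-e in both replicates. Their share of all UMIs was 0.231% ± 0.009 for SPG-Aun, 0.207% ± 0.0024 for SPG-B, 0.245% ± 0.0078 for SPC-I, 0.224% ± 0.0056 for SPT-r and 0.175% ± 0.016 for SPT-e (mean ± SD, n = 2 replicates, as for all means below). Per cell, the sum was 34.4 ± 3.96 UMIs in SPG-Ad, 16.6 ± 0.79 in SPC-I, 20.1 ± 1.02 in SPT-r and 2.97 ± 0.091 in SPT-e. A cell of the last stage thus gave far fewer UMIs of these genes, while all its UMIs were also fewer, 1704 ± 106 against 8973 ± 679.8 in SPT-r. RNA per cell and capture per cell cannot be told apart here, and no level below is an amount per cell. Each is a share of the RNA counted after TMM scaling, and orders of stages hold on that scale. Against plain CPM, without TMM, the scaling raised SPT-e (brdt in replicate 1 from 402 to 539.5) and lowered SPC-II (from 453 to 351).

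The make-up of this sum differed between stages, with larger shares of HDACs and acetyltransferases early and of scaffolds and BET readers late. HDACs held 22% ± 1.26 of the UMIs of the 53 genes in SPG-Aun, 6.78% ± 1.5 in SPT-r and 8.65% ± 3.04 in SPT-e. Acetyltransferases held 31.5% ± 1.47 in SPG-Aun and 14.2% ± 1.23 in SPT-e. Their scaffolds ran the other way, from 8.82% ± 0.37 to 29.5% ± 2.1, and BET readers from 24.5% ± 0.82 to 37.3% ± 3.33. Sirtuins were at 7.6% ± 0.41 in SPG-Aun, 17% ± 1.06 in SPC-II and 8.73% ± 0.64 in SPT-e. Unlike the BET readers, the readers of remodelling complexes went from 5.6% ± 0.65 in SPG-Aun to 1.61% ± 0.53 in SPT-e. The ranges of the replicates at these end points did not overlap for HDACs, acetyltransferases, scaffolds and BET readers, and these shares were not tested. Single genes carried most of the HDAC and scaffold shifts: hdac1 alone was 16.1% ± 1.28 of the sum in SPG-Aun and 1.15% ± 0.27 in SPT-r, and brpf3_70513 went from 0.5% ± 0.035 to 19.2% ± 1.36.

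**Figure D1:**
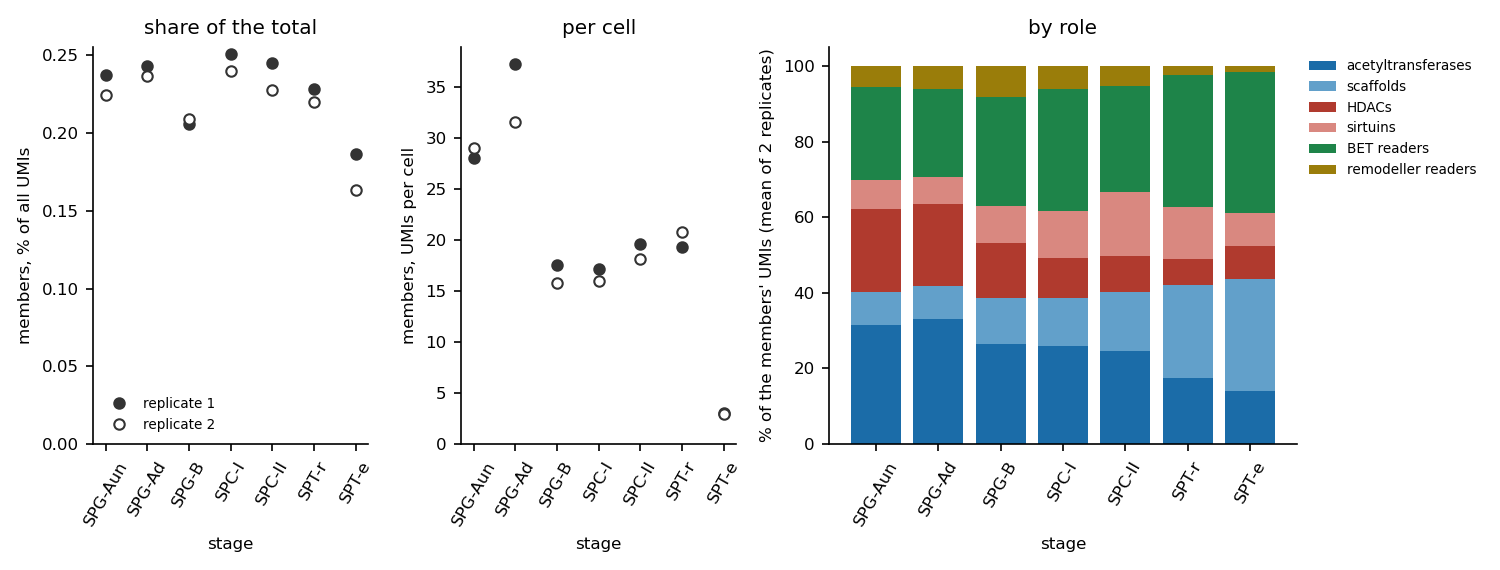
UMIs of the 53 genes by stage (x axis): as a percentage of all UMIs (left), per cell (middle), each point 1 replicate, and split by role as a percentage of the UMIs of the 53 genes (right, stacked means of 2 replicates). The per-cell sum drops to 2.97 in SPT-e, and HDACs shrink from 22.0% to 6.78% between SPG-Aun and SPT-r while scaffolds widen.

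Of the 53 genes, 50 passed the filter on low counts, with 101 to 16151 UMIs each. hdac7, hdac7b and hdac9b, class IIa HDACs, had 13, 9 and 75 UMIs in all and were not tested. Over the 7 stages 42 of the 50 changed, which is 84.0% against 90.1% of all genes tested. The stage class with the highest level (SPG, SPC or SPT) was the same in both replicates for 41 genes, of which 24 peaked in spermatogonia, 5 in spermatocytes and 12 in spermatids. The same count was not made over all genes tested, so it does not set these genes apart. The broadest comparison, both spermatid stages against the 3 spermatogonial stages, called 11 genes higher and 22 lower. These are 22% and 44% of the 50, and the backgrounds were 29.2% and 38.6% of all genes tested. The median log2 fold change was −0.17 over the 50 genes and −0.42 over all genes. The median thus fell less for the 50, while fewer of them were called higher and more lower, so the measures point different ways.

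The scale bears on this comparison. Counted per cell, the median of all genes was −2.18 against −0.42 with TMM. On that scale 3 of the 50 genes were higher and 37 lower, beside 2021 higher and 8907 lower of all 13485 genes tested. Of the 50, brd2b, brpf1, hdac12, kat5b, ncoa3 and sirt6 changed direction. brpf3_70513, hdac11 and ncoa2 stayed higher on both scales. All folds below are on the TMM scale. A rise or fall in SPC-I is against the mean of the 3 spermatogonial stages, so part of it can lie before SPC-I.

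**Figure D2:**
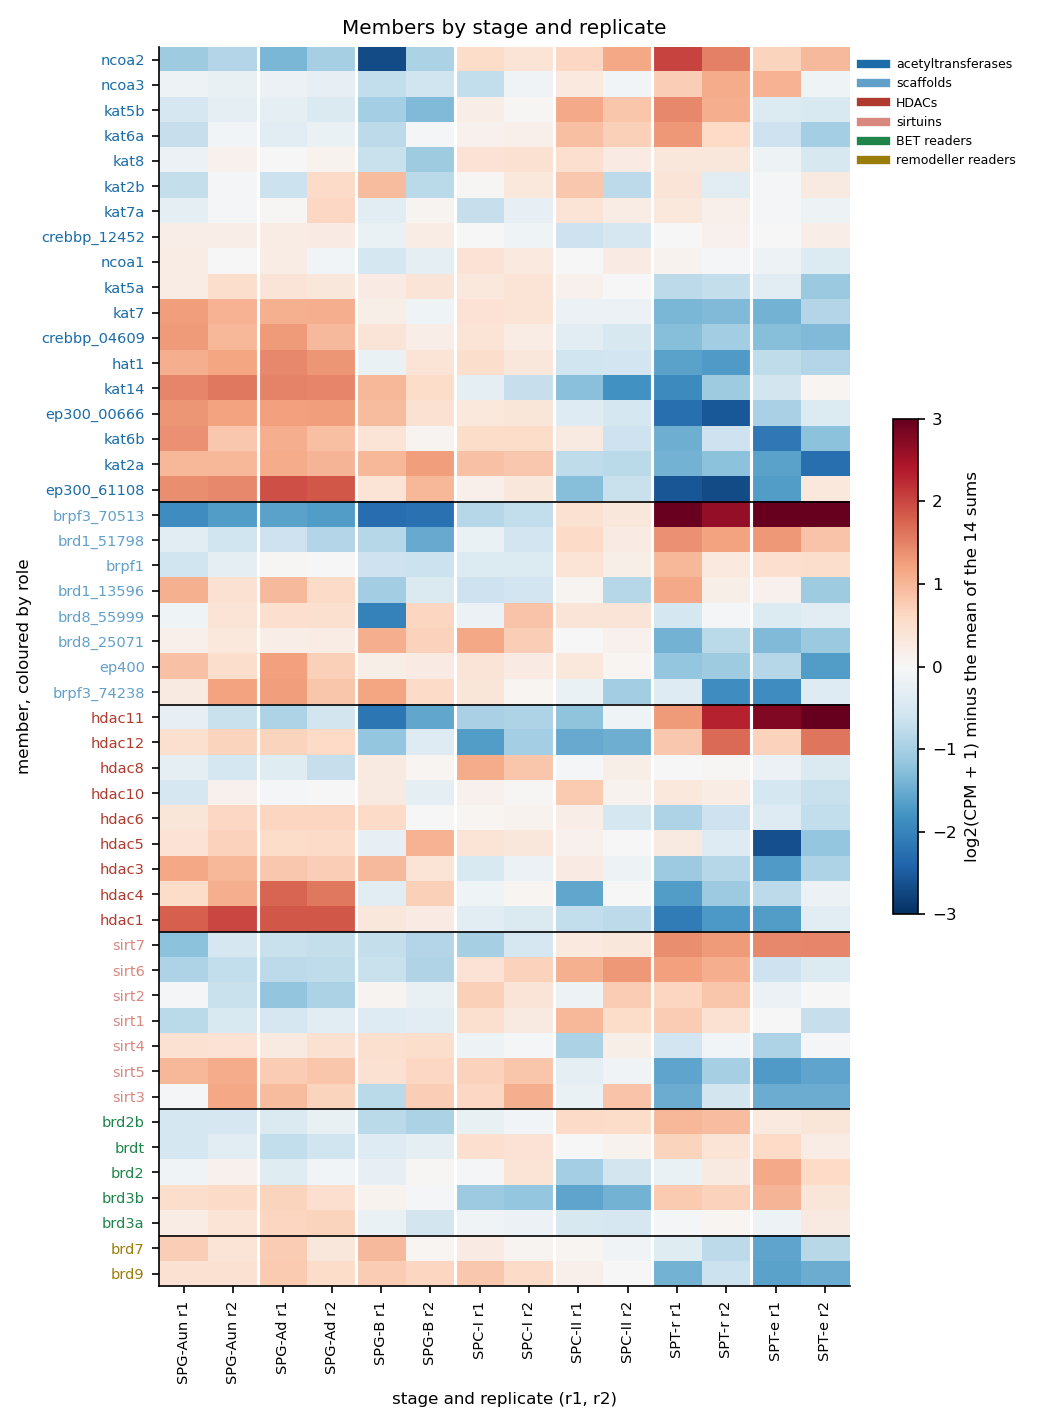
Levels of 49 of the 50 genes tested (rows, name colour and black lines mark the role) in the 14 sums (columns, r1 and r2 are the replicates), as log2(CPM + 1) minus the gene's mean over the 14 sums. The colour scale ends at −3 and 3, and both replicates of a stage mostly share a colour: reds on the left mark genes that peak in spermatogonia and reds on the right those that peak in spermatids.

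**Figure D3:**
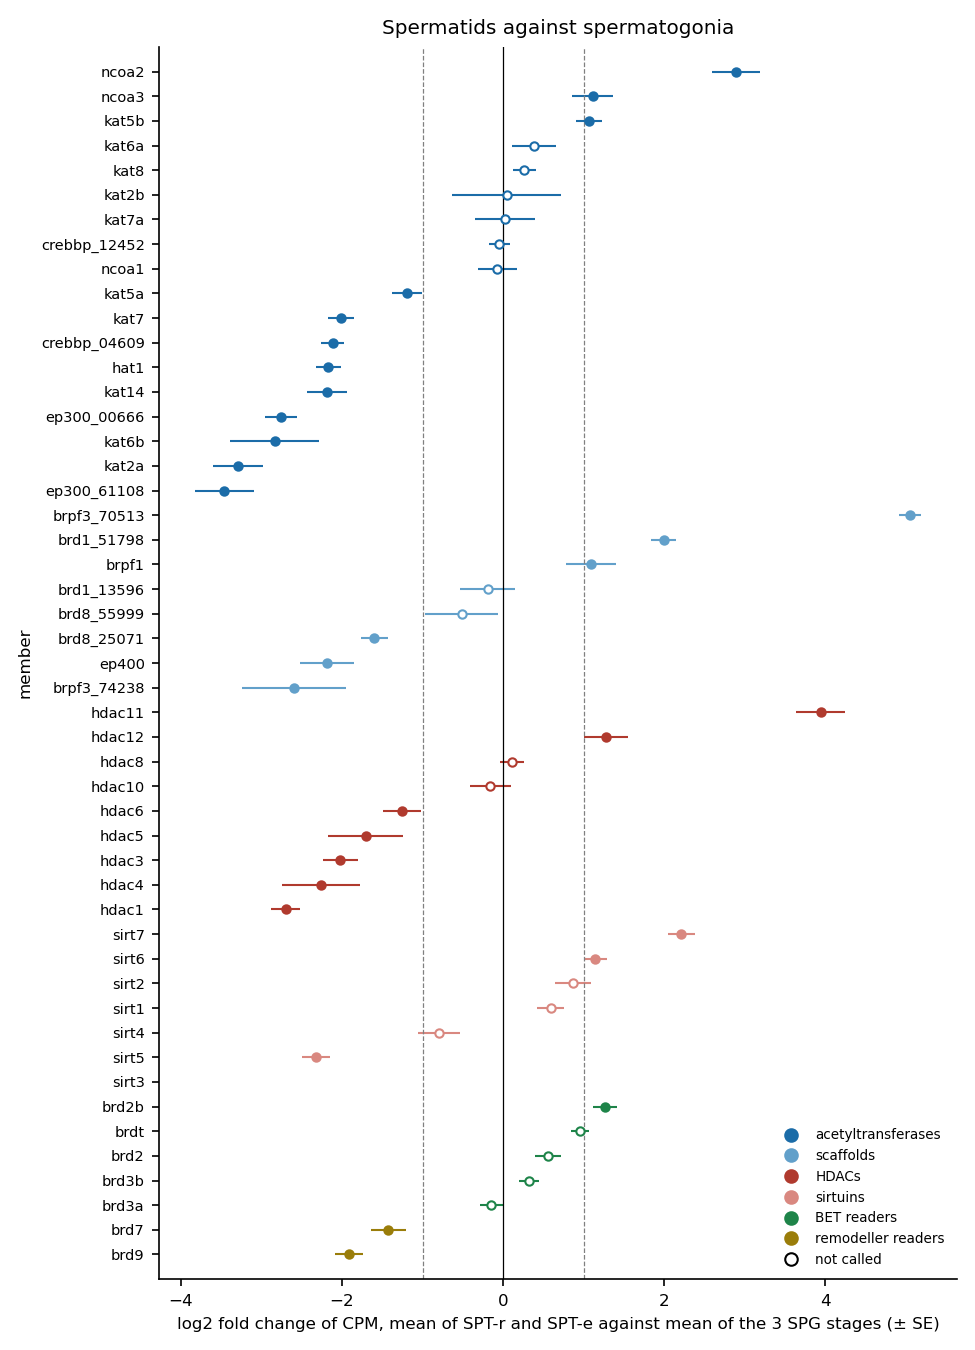
Log2 fold change of CPM with its standard error (x axis) between the mean of SPT-r and SPT-e and the mean of the 3 spermatogonial stages, for 48 of the 50 genes tested. sirt3 is named but has no point, since it had no UMI in SPT-e. Filled points are called, dashed lines mark −1 and 1, and the points run from −3.46 for ep300_61108 to 5.05 for brpf3_70513.

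Among the acetyltransferases, the p300 and CBP genes were spermatogonial with 1 exception. p300 and CBP are paralogous coactivators that acetylate H3K27 at enhancers and promoters. ep300_00666 was at 60.4 and 55.7 CPM in SPG-Aun (replicates 1 and 2), with SPG-Ad at 57.2 and 58.1, SPG-B at 46.6 and 32.9, SPC-I at 29.9 and 30.9, SPC-II at 17.9 and 16.1, SPT-r at 4.13 and 3.26 and SPT-e at 11.6 and 17.6. Both SPG-A stages lay above all other sums, and both SPT-r values were the lowest. As plain CPM, SPG-Aun of replicate 2 (49.02) lay below SPG-B of replicate 1 (50.65). The level of ep300_61108 in SPG-Aun was 23.7 and 24.3 CPM in the replicates, with SPG-Ad at 34.7 and 33, SPG-B at 11.5 and 17.5, SPC-I at 9.38 and 10.8, SPC-II at 2.87 and 4.87, SPT-r at 0.59 and 0.47 and SPT-e at 1.93 and 10.6. This copy had only 2 UMIs in SPT-r over both replicates and 17 in SPC-II, a ratio of 10.9 with an exact counting interval of 2.58 to 97.1. Both fell from spermatogonia to spermatids, ep300_00666 (log2 fold change −2.76, SE 0.20, adjusted p = 1.5e-09) and ep300_61108 (log2 fold change −3.46, SE 0.36, adjusted p = 1.7e-07).

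For crebbp_04609 the SPG-Aun sums gave 209 and 172 CPM, with SPG-Ad at 209.8 and 169, SPG-B at 112 and 97.9, SPC-I at 113 and 100.3, SPC-II at 68.8 and 61, SPT-r at 34.8 and 41 and SPT-e at 34.8 and 33.5. Its spermatid values were all below its spermatocyte values, which were all below those of SPG-Aun and SPG-Ad. In SPG-Aun crebbp_12452 had 70.8 and 70.7 CPM, with SPG-Ad at 71.6 and 72.3, SPG-B at 53.2 and 71.6, SPC-I at 62 and 55.5, SPC-II at 39.4 and 42.7, SPT-r at 61.9 and 67.5 and SPT-e at 61.9 and 70.5. The second CBP gene kept overlapping levels in spermatogonia and spermatids. The first fell (log2 fold change −2.11, SE 0.14, adjusted p = 8.3e-10) and the second had a log2 fold change of −0.05, SE 0.13, adjusted p = 0.73. The share of crebbp_04609 in the UMIs of the pair was 72.7% ± 2.71 in SPG-Aun, 61.2% ± 3.35 in SPC-II and 34.1% ± 2.68 in SPT-e, a measure that does not depend on the scale of a stage. No test was run between paralogs.

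Of the GNAT enzymes, kat2a, hat1 and kat14 fell and kat2b did not pass the test. Kat2a (Gcn5) is the catalytic subunit of the SAGA complex, and Hat1 acetylates newly made histone H4. kat2a was at 16.9 and 17 CPM in SPG-Aun (replicates 1 and 2), with SPG-Ad at 18.4 and 17, SPG-B at 16.9 and 20.4, SPC-I at 15.4 and 14.6, SPC-II at 4.3 and 4.12, SPT-r at 2.36 and 2.79 and SPT-e at 1.93 and 0.88. The drop came between the spermatocyte stages (log2 fold change −1.83, SE 0.32, adjusted p = 4.2e-04), where no values overlapped. The level of hat1 in SPG-Aun was 135 and 144 CPM in the replicates, with SPG-Ad at 173 and 158, SPG-B at 55.1 and 84, SPC-I at 91.6 and 80.4, SPC-II at 41.6 and 41.9, SPT-r at 20.1 and 18.6 and SPT-e at 36.7 and 33.5. Hat1 was highest in both SPG-Ad sums and lowest in both SPT-r sums. Against SPC-II it fell further in SPT-r (log2 fold change −1.11, SE 0.24, adjusted p = 0.0022), though the log2 fold change came to −0.91 and −0.96 with transferred labels in both replicates and without called doublets, inside the limit. Its fall from SPC-I to SPC-II (log2 fold change −1.04, SE 0.20, adjusted p = 0.0011) was inside the limit under 6 alternatives (−0.99 to −0.62), with −0.93 in replicate 2 alone. kat14, the second acetyltransferase of the ATAC complex, fell in spermatocytes (log2 fold change −1.89, SE 0.24, adjusted p = 7.1e-06) and again in SPC-II (log2 fold change −1.29, SE 0.41, adjusted p = 0.025, but an adjusted p of 0.057 without the filter and 0.06 with at least 12 votes), with stage means from 35.5 ± 1.9 CPM in SPG-Aun to 3.46 ± 1.19 CPM in SPC-II. kat2b (Pcaf) had 101 UMIs in all and stage means of 1.40 to 2.79 CPM, and gave a log2 fold change of 0.04, SE 0.68, adjusted p = 0.96.

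The MYST family split by paralog. Kat5 (Tip60) acetylates H4 and H2A within the NuA4 complex. For kat5a the SPG-Aun sums gave 26 and 32.5 CPM, with SPG-Ad at 29.5 and 28.4, SPG-B at 26.6 and 29.2, SPC-I at 27.8 and 29.9, SPC-II at 24.4 and 22.1, SPT-r at 12.4 and 13 and SPT-e at 17.4 and 9.7. In SPG-Aun kat5b had 25.4 and 30.1 CPM, with SPG-Ad at 29.8 and 26.9, SPG-B at 17.6 and 13.9, SPC-I at 41.7 and 37.3, SPC-II at 81 and 66.2, SPT-r at 100.3 and 78.2 and SPT-e at 27.1 and 26.4. Spermatocytes and round spermatids were high for kat5b, while kat5a was level until SPC-II and low afterwards. From spermatogonia to spermatids kat5b rose (log2 fold change 1.07, SE 0.16, adjusted p = 1.6e-05) and kat5a fell (log2 fold change −1.19, SE 0.19, adjusted p = 2.4e-05). Both calls are near the limit: the log2 fold change was 0.79 for kat5b without SPG-B, and for kat5a −0.88 to −0.99 under 4 alternatives, among them replicate 1 alone. kat5b then fell from SPT-r to SPT-e (log2 fold change −1.74, SE 0.25, adjusted p = 1.4e-04). Its SPT-e values were within those of SPG-Aun and SPG-Ad, so its call in spermatids lay mainly with SPT-r. Within the pair, kat5a held 51.2% ± 0.99 of the UMIs at SPG-Aun, 24.1% ± 1.32 at SPC-II, 12.6% ± 2.33 at SPT-r and 33% ± 8.7 at SPT-e.

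Kat6a and Kat6b (Moz and Morf) acetylate H3 together with Brpf scaffolds. kat6a was at 9.03 and 14.4 CPM in SPG-Aun (replicates 1 and 2), with SPG-Ad at 12.1 and 13.1, SPG-B at 8.47 and 14.6, SPC-I at 16.9 and 17.1, SPC-II at 29.4 and 25.8, SPT-r at 38.9 and 23.7 and SPT-e at 9.67 and 7.05. The level of kat6b in SPG-Aun was 10.4 and 6.68 CPM in the replicates, with SPG-Ad at 8.37 and 7.21, SPG-B at 4.84 and 3.65, SPC-I at 5.44 and 5.42, SPC-II at 4.3 and 1.87, SPT-r at 0.59 and 1.86 and SPT-e at 0 and 0.88. kat6a was highest in SPC-II and SPT-r, and kat6b, at 272 UMIs the rarer copy, was highest in SPG-A. Only kat6b was called between spermatogonia and spermatids (log2 fold change −2.83, SE 0.55, adjusted p = 1.9e-04), whereas kat6a gave a log2 fold change of 0.38, SE 0.28, adjusted p = 0.21 and fell from SPT-r to SPT-e (log2 fold change −1.96, SE 0.43, adjusted p = 0.0035). In SPT-e kat6b had 1 UMI, against 51 in SPC-I (ratio 13.3, exact counting interval 2.28 to 535).

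For kat7 the SPG-Aun sums gave 91.2 and 79.5 CPM, with SPG-Ad at 80.7 and 81.2, SPG-B at 43 and 34.3, SPC-I at 51.7 and 50.5, SPC-II at 33.7 and 33.7, SPT-r at 14.2 and 14.4 and SPT-e at 13.5 and 20.3. Kat7 (Hbo1) acetylates H3K14 and H4 and fell in SPT-r (log2 fold change −1.23, SE 0.24, adjusted p = 9.7e-04), with no overlap between SPC-II and SPT-r. In SPG-Aun kat7a had 3.1 and 3.93 CPM, with SPG-Ad at 4.19 and 6.77, SPG-B at 3.02 and 4.38, SPC-I at 2.12 and 3.29, SPC-II at 5.73 and 4.87, SPT-r at 5.31 and 4.65 and SPT-e at 3.87 and 3.53. This rarer copy, with 194 UMIs, showed no such order, and its stage test gave an adjusted p of 0.35. kat8 was at 49.7 and 61.5 CPM in SPG-Aun (replicates 1 and 2), with SPG-Ad at 56.3 and 60.5, SPG-B at 35.1 and 26.3, SPC-I at 76.2 and 76.9, SPC-II at 79.6 and 66.2, SPT-r at 70.8 and 71.7 and SPT-e at 50.3 and 39.7. Kat8 (Mof), which acetylates H4K16 in the MSL and NSL complexes, was lowest in SPG-B and highest in spermatocytes and round spermatids. Its log2 fold change from spermatogonia to SPC-I was 0.72 (SE 0.15, adjusted p = 8.9e-04), under the limit, and to spermatids 0.26 (SE 0.15, adjusted p = 0.11).

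Of the nuclear receptor coactivators, for which acetyltransferase activity has been described in mammals, ncoa2 changed most. The level of ncoa2 in SPG-Aun was 3.95 and 4.63 CPM in the replicates, with SPG-Ad at 3.02 and 4.15, SPG-B at 0.6 and 4.38, SPC-I at 14.2 and 12.8, SPC-II at 15.1 and 22.1, SPT-r at 41.3 and 28.4 and SPT-e at 15.5 and 19.4. Every spermatocyte and spermatid value was above every spermatogonial one. It rose in SPC-I (log2 fold change 2.00, SE 0.31, adjusted p = 4.5e-05) and was higher in spermatids than in spermatogonia (log2 fold change 2.89, SE 0.30, adjusted p = 1.6e-07). ncoa3 was called higher in spermatids (log2 fold change 1.11, SE 0.26, adjusted p = 7.9e-04), a call that ended without SPG-B and with replicate 2 alone (0.94 and 0.89), and ncoa1 gave a log2 fold change of −0.07, SE 0.24, adjusted p = 0.84.

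The scaffolds hold MYST enzymes in their complexes and read the chromatin next to them, and brpf3_70513, one of the 12 genes of widest range, was among them. For brpf3_70513 the SPG-Aun sums gave 11.6 and 13.3 CPM, with SPG-Ad at 14 and 13.3, SPG-B at 8.47 and 8.77, SPC-I at 24.2 and 26.5, SPC-II at 61.6 and 56.9, SPT-r at 356 and 282 and SPT-e at 505 and 398. The values ran upwards stage after stage from SPG-B, with no overlap between consecutive stages. As plain CPM, the gene was at 299 in SPT-e of replicate 2 and higher, at 320, in SPT-r of replicate 1. It rose in SPC-I (log2 fold change 1.15, SE 0.17, adjusted p = 2.7e-05), in SPC-II (log2 fold change 1.22, SE 0.20, adjusted p = 2.3e-04) and in SPT-r (log2 fold change 2.43, SE 0.19, adjusted p = 2.4e-07), and was higher in spermatids overall (log2 fold change 5.05, SE 0.14, adjusted p = 2.9e-15). The SPC-I step came to 0.95 without SPG-B. In SPG-Aun brpf3_74238 had 3.39 and 7.38 CPM, with SPG-Ad at 7.67 and 5.46, SPG-B at 7.26 and 4.38, SPC-I at 3.63 and 2.79, SPC-II at 2.15 and 0.75, SPT-r at 1.77 and 0 and SPT-e at 0 and 1.76. This copy had 221 UMIs and was highest in SPG-Ad in replicate 1 and in SPG-Aun in replicate 2. It fell in spermatids (log2 fold change −2.59, SE 0.65, adjusted p = 0.0016), with 3 UMIs in SPT-r against 29 in SPC-I (ratio 4.79, exact counting interval 1.48 to 24.5). The share of brpf3_70513 in the pair was 67.7% ± 4.54 in SPG-Ad, 88.7% ± 2.47 in SPC-I and 99.8% ± 0.35 in SPT-r.

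brd1_51798 was at 66.6 and 55.1 CPM in SPG-Aun (replicates 1 and 2), with SPG-Ad at 53.5 and 44.6, SPG-B at 45.4 and 28.5, SPC-I at 72.6 and 55.9, SPC-II at 125 and 99.9, SPT-r at 217 and 195 and SPT-e at 207 and 152. The level of brd1_13596 in SPG-Aun was 26.8 and 17.2 CPM in the replicates, with SPG-Ad at 24.9 and 18.6, SPG-B at 5.45 and 8.77, SPC-I at 7.56 and 7.89, SPC-II at 12.9 and 6.36, SPT-r at 28.3 and 14 and SPT-e at 13.5 and 5.29. Brd1 (Brpf2) is the scaffold of Kat7 complexes. All 4 spermatid values of brd1_51798 were above all others. As plain CPM, its SPT-e values (154 and 114) were below those of SPC-II in the same replicate (162 and 122). Spermatid values of brd1_13596 overlapped with spermatogonia. The first rose (log2 fold change 1.99, SE 0.15, adjusted p = 3.4e-09) and the second gave a log2 fold change of −0.19, SE 0.34, adjusted p = 0.62, and the share of brd1_13596 was 30.6% ± 1.65 in SPG-Ad and 4.75% ± 1.97 in SPT-e. brpf1, at 225 UMIs, was called higher (log2 fold change 1.09, SE 0.31, adjusted p = 0.0044) but lost the call without SPG-B and with replicate 2 alone (0.90 and 0.81).

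Brd8 and Ep400 are subunits of the NuA4 complex that holds Kat5. For brd8_25071 the SPG-Aun sums gave 87.5 and 98.5 CPM, with SPG-Ad at 90.5 and 92.6, SPG-B at 169 and 129, SPC-I at 178 and 132, SPC-II at 79.6 and 86.1, SPT-r at 28.9 and 45.1 and SPT-e at 30.9 and 36.1. It was highest in SPG-B and SPC-I and lower in all spermatid sums than anywhere else. In SPG-Aun brd8_55999 had 7.34 and 11 CPM, with SPG-Ad at 11.9 and 11.6, SPG-B at 1.21 and 13.2, SPC-I at 6.96 and 15.3, SPC-II at 10.8 and 10.8, SPT-r at 5.31 and 7.91 and SPT-e at 5.8 and 6.17. This copy, with 486 UMIs, did not pass the stage test (adjusted p = 0.58). brd8_25071 fell in SPT-r (log2 fold change −1.15, SE 0.24, adjusted p = 0.0017), and ep400 fell beside it (log2 fold change −1.51, SE 0.45, adjusted p = 0.017), to 3.1 ± 0.22 CPM from 9.13 ± 1.27 CPM. The ep400 call ended when at least 12 of the 15 nearest annotated cells had to share the stage of a replicate 2 cell (−1.37, adjusted p = 0.094).

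**Figure D4:**
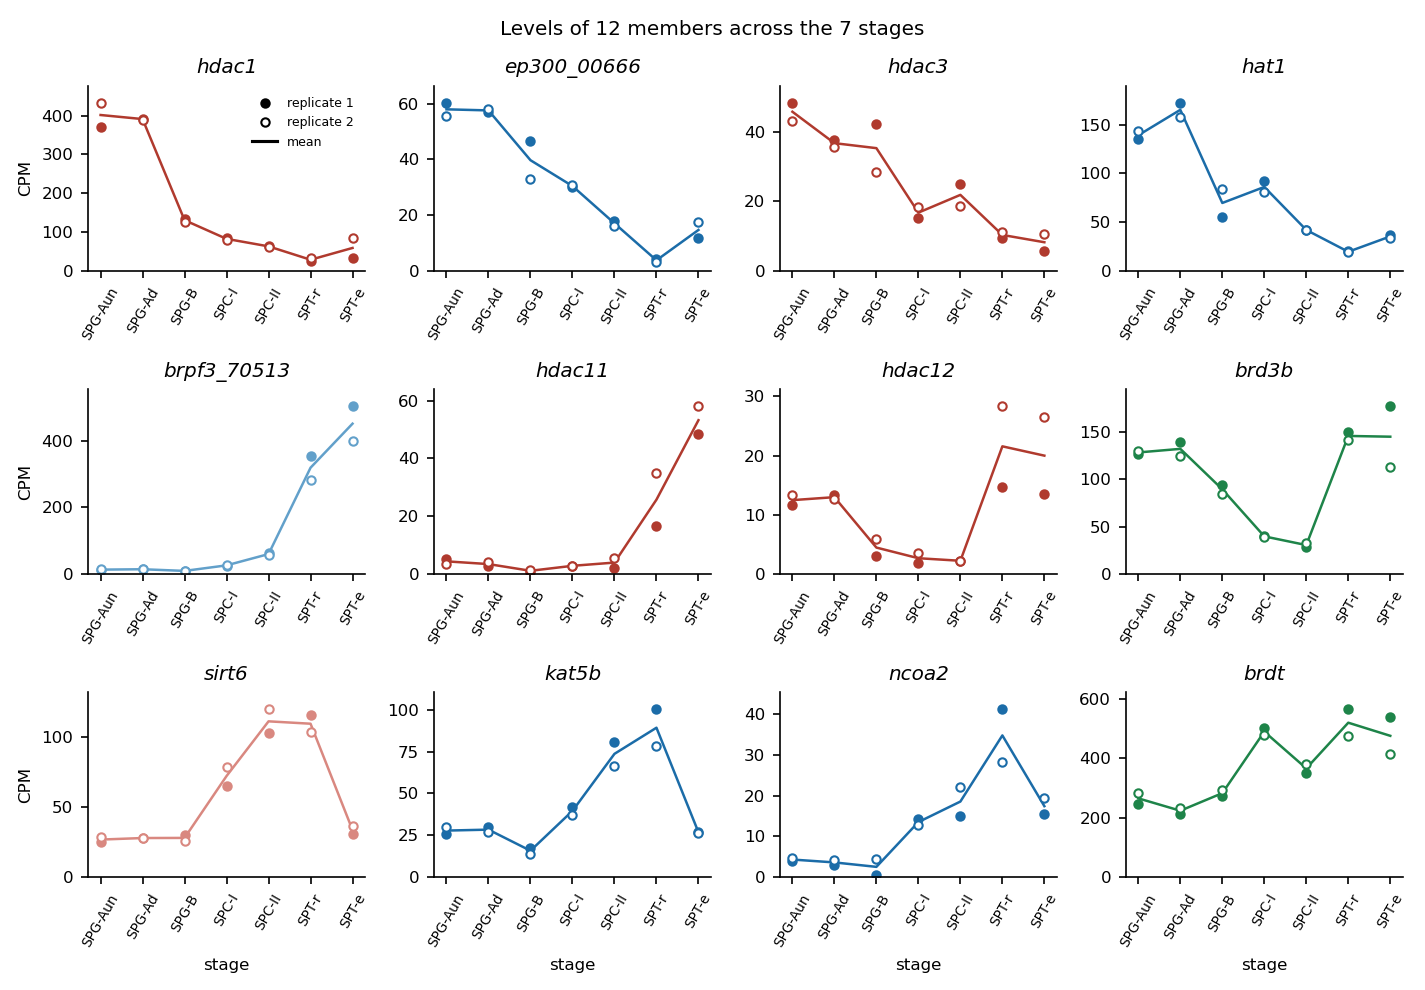
Levels in CPM (y axes, linear, each from 0) of 12 genes across the 7 stages (x axes), with 1 point per replicate and a line through the mean. hdac1, ep300_00666 and hat1 start high and are lowest in SPT-r, hdac3 is low in both spermatid stages, brpf3_70513, hdac11 and hdac12 are highest in spermatids, and sirt6 and kat5b peak before SPT-e.

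Among the HDACs the class I enzymes, which work in the NuRD, Sin3, CoREST and NCoR complexes, were spermatogonial with the exception of hdac8. hdac1 was at 369.8 and 433 CPM in SPG-Aun (replicates 1 and 2), with SPG-Ad at 392 and 389.6, SPG-B at 134 and 126, SPC-I at 85 and 78.6, SPC-II at 63.1 and 61.8, SPT-r at 24.2 and 31.6 and SPT-e at 32.9 and 83.7. Both SPG-A stages stood at about the same level, and all their values were above those of SPG-B and every later stage. hdac1 was lower in SPC-I than in the spermatogonial mean (log2 fold change −1.74, SE 0.21, adjusted p = 3.0e-06), with much of the drop already present in SPG-B. It fell in SPT-r (log2 fold change −1.15, SE 0.28, adjusted p = 0.0052) and was lower in spermatids than in spermatogonia (log2 fold change −2.70, SE 0.18, adjusted p = 6.7e-10). No hdac2 identifier was among the 53. The level of hdac3 in SPG-Aun was 48.5 and 43.4 CPM in the replicates, with SPG-Ad at 37.9 and 35.8, SPG-B at 42.4 and 28.5, SPC-I at 15.1 and 18.4, SPC-II at 25.1 and 18.7, SPT-r at 9.44 and 11.2 and SPT-e at 5.8 and 10.6. Hdac3, the enzyme of the NCoR complex, fell in SPC-I (log2 fold change −1.21, SE 0.20, adjusted p = 9.4e-05, and −0.93 in replicate 2 alone) and in spermatids overall (log2 fold change −2.02, SE 0.21, adjusted p = 2.0e-07). The fall of hdac3 from SPC-II to SPT-r (log2 fold change −1.04, SE 0.30, adjusted p = 0.017) was inside the limit under 5 alternatives (−0.73 to −0.997). hdac8, whose mammalian counterpart deacetylates cohesin, was instead higher in SPC-I (log2 fold change 1.26, SE 0.15, adjusted p = 3.4e-06). It was at 30.5 ± 4.86 CPM in SPG-Ad, its lowest stage, 49.9 ± 5.54 CPM in SPG-B, 88.3 ± 12.8 CPM in SPC-I and 46.4 ± 4.79 CPM in SPC-II.

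The class IIa enzymes, signal-dependent corepressors with weak activity of their own, were rare throughout. For hdac4 the SPG-Aun sums gave 6.49 and 9.74 CPM, with SPG-Ad at 16.1 and 14.2, SPG-B at 3.02 and 7.3, SPC-I at 3.63 and 4.27, SPC-II at 0.72 and 4.12, SPT-r at 0.59 and 1.4 and SPT-e at 1.93 and 3.53. In SPG-Aun hdac5 had 7.34 and 8.96 CPM, with SPG-Ad at 8.14 and 8.3, SPG-B at 4.24 and 11.7, SPC-I at 7.26 and 6.9, SPC-II at 5.73 and 5.24, SPT-r at 6.49 and 3.72 and SPT-e at 0 and 1.76. hdac4 was highest in SPG-Ad and fell in spermatids (log2 fold change −2.26, SE 0.48, adjusted p = 4.2e-04). In SPC-I it was lower than in the spermatogonial mean (log2 fold change −1.10, SE 0.40, adjusted p = 0.028), though SPG-B and SPC-I values overlapped. This call was lost under 4 alternatives, at −0.80 to −0.99, with −0.87 in replicate 1 alone. hdac5 did not pass the stage test (adjusted p = 0.072), and its call in spermatids (log2 fold change −1.70, SE 0.47, adjusted p = 0.0032) rested on SPT-e, since SPT-r alone gave −0.69. hdac6, the tubulin deacetylase of class IIb, was lower (log2 fold change −1.25, SE 0.23, adjusted p = 1.3e-04), and hdac10, a polyamine deacetylase, gave a log2 fold change of −0.16, SE 0.25, adjusted p = 0.58.

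Against this, hdac11 and hdac12 were highest in spermatids. hdac11 was at 5.08 and 3.54 CPM in SPG-Aun (replicates 1 and 2), with SPG-Ad at 2.79 and 3.93, SPG-B at 0.6 and 1.46, SPC-I at 2.72 and 2.79, SPC-II at 2.15 and 5.61, SPT-r at 16.5 and 34.9 and SPT-e at 48.3 and 58.2. All spermatid values were above all others. Hdac11, the class IV enzyme that removes long-chain acyl groups, rose in SPT-r (log2 fold change 2.60, SE 0.47, adjusted p = 5.4e-04) and was higher in spermatids overall (log2 fold change 3.94, SE 0.31, adjusted p = 4.3e-09). hdac12 was low from SPG-B to SPC-II. Its level was 13 ± 0.42 CPM in SPG-Ad, 4.43 ± 1.99 CPM in SPG-B, 2.2 ± 0.067 CPM in SPC-II and 21.6 ± 9.65 CPM in SPT-r. It was lower in SPC-I than in the spermatogonial mean (log2 fold change −1.66, SE 0.39, adjusted p = 0.0017). It rose in SPT-r (log2 fold change 3.28, SE 0.51, adjusted p = 1.5e-04), where the replicates were apart, at 14.7 and 28.4 CPM. In replicate 1 the spermatid levels were close to SPG-Ad, with SPT-e at 13.5 CPM and SPG-Ad at 13.3 CPM. The call against spermatogonia (log2 fold change 1.28, SE 0.28, adjusted p = 4.8e-04) ended without SPG-B (0.76) and with replicate 1 alone (0.83).

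Among the sirtuins, sirt6 and sirt7 were called higher in spermatids and sirt3 and sirt5 lower. Sirt1, Sirt6 and Sirt7 are nuclear or nucleolar, Sirt2 is mainly cytoplasmic, and Sirt3, Sirt4 and Sirt5 are mitochondrial. The level of sirt1 in SPG-Aun was 32.2 and 41.8 CPM in the replicates, with SPG-Ad at 40.5 and 45.2, SPG-B at 43.6 and 45.3, SPC-I at 80.4 and 69.8, SPC-II at 115 and 84.6, SPT-r at 97.9 and 78.7 and SPT-e at 58 and 35.3. Spermatocytes and round spermatids were above all spermatogonial values. Its log2 fold changes, 0.86 in SPC-I (SE 0.18, adjusted p = 6.7e-04) and 0.59 in spermatids (SE 0.17, adjusted p = 0.0041), stayed under the limit. sirt6 rose in SPC-I (log2 fold change 1.39, SE 0.15, adjusted p = 7.9e-07), had means of 111 ± 12.2 CPM in SPC-II and 109.5 ± 8.68 CPM in SPT-r, and fell again in SPT-e (log2 fold change −1.68, SE 0.23, adjusted p = 7.7e-05). Its SPT-e level of 33.5 ± 3.68 CPM was near the 27.9 ± 3.31 CPM of SPG-B, so its call in spermatids lay mainly with SPT-r. sirt7 rose in SPC-II (log2 fold change 1.07, SE 0.25, adjusted p = 0.0041) and in SPT-r (log2 fold change 1.04, SE 0.24, adjusted p = 0.0044) and was at 82 ± 1.17 CPM in SPT-e. Spermatids were above spermatogonia for sirt7 (log2 fold change 2.21, SE 0.17, adjusted p = 2.4e-09). Both single steps of sirt7 came to 0.76 to 0.98 under some alternatives, with replicate 2 alone among them. sirt2 rose in SPC-I (log2 fold change 1.09, SE 0.22, adjusted p = 5.4e-04).

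For sirt3 the SPG-Aun sums gave 1.69 and 5.26 CPM, with SPG-Ad at 4.42 and 3.5, SPG-B at 0.6 and 3.65, SPC-I at 3.33 and 4.93, SPC-II at 1.43 and 4.12, SPT-r at 0 and 0.93 and SPT-e at 0 and 0. This rare gene had no UMI in either SPT-e sum, where 3 counts would be 4.32 and 1.98 CPM, so an absence cannot be told from the depth, and 2 UMIs in SPT-r against 41 in SPC-I (ratio 10.1, exact counting interval 2.64 to 86.6). It counts among the 22 genes called lower, while its test over stages gave an adjusted p of 0.052. sirt5 fell in SPT-r (log2 fold change −1.10, SE 0.25, adjusted p = 0.0032) and in spermatids overall (log2 fold change −2.32, SE 0.18, adjusted p = 3.4e-09), from 70.9 ± 4.42 CPM in SPG-Aun to 10.1 ± 0.64 CPM in SPT-e. sirt4 gave a log2 fold change of −0.79, SE 0.26, adjusted p = 0.011, under the limit.

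Among the BET readers, which hold 2 bromodomains each, brdt was the most abundant of all 53 genes by UMIs, with 16151. In SPG-Aun brdt had 246 and 285 CPM, with SPG-Ad at 213 and 234, SPG-B at 272 and 294, SPC-I at 502 and 479, SPC-II at 351 and 382, SPT-r at 566 and 475 and SPT-e at 539.5 and 413. brdt, whose mouse counterpart is specific to the testis, was already present in spermatogonia, and all spermatocyte and spermatid values were above all spermatogonial ones. As plain CPM this did not hold in replicate 2, with brdt at 310 in SPT-e and 343 in SPG-B. The log2 fold change was 0.94 in SPC-I (SE 0.13, adjusted p = 1.7e-05) and 0.95 in spermatids (SE 0.11, adjusted p = 6.8e-07), just under the limit in both.

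brd2 was at 86.1 and 101 CPM in SPG-Aun (replicates 1 and 2), with SPG-Ad at 71.9 and 86.7, SPG-B at 78 and 94.2, SPC-I at 89.2 and 123, SPC-II at 45.2 and 62.5, SPT-r at 79.6 and 111 and SPT-e at 203 and 140.2. The level of brd2b in SPG-Aun was 17.2 and 17.4 CPM in the replicates, with SPG-Ad at 18.4 and 21.4, SPG-B at 13.9 and 12.4, SPC-I at 21.5 and 23.7, SPC-II at 38 and 37, SPT-r at 51.3 and 48.9 and SPT-e at 30.9 and 32.6. Brd2 binds acetylated H4 along transcribed genes, and its copies moved apart in SPC-II, where brd2 was lowest and brd2b was above all its spermatogonial values. brd2b was called in spermatids (log2 fold change 1.27, SE 0.15, adjusted p = 7.0e-07), and brd2 gave a log2 fold change of 0.56, SE 0.16, adjusted p = 0.0043. The share of brd2 in the pair was 82.3% ± 2.34 in SPC-I, 58.5% ± 5.99 in SPC-II and 83.9% ± 4.0 in SPT-e. For brd3a the SPG-Aun sums gave 50.5 and 58.2 CPM, with SPG-Ad at 68.2 and 69, SPG-B at 37.5 and 29.2, SPC-I at 39.9 and 38, SPC-II at 30.8 and 30.3, SPT-r at 41.3 and 45.1 and SPT-e at 38.7 and 52.9. In SPG-Aun brd3b had 127 and 130.3 CPM, with SPG-Ad at 140.0 and 125, SPG-B at 94.4 and 84.7, SPC-I at 40.5 and 38.8, SPC-II at 28.7 and 32.2, SPT-r at 150.4 and 142 and SPT-e at 178 and 113. brd3a ranged from 29.2 to 69.0 CPM, while brd3b dropped in SPC-I (log2 fold change −1.54, SE 0.17, adjusted p = 1.6e-06) and came back in SPT-r (log2 fold change 2.25, SE 0.22, adjusted p = 1.5e-06) with no overlap between spermatocytes and any other stage. The share of brd3a was 29.7% ± 1.71 in SPG-Aun, 50.2% ± 2.34 in SPC-II and 22.8% ± 1.83 in SPT-r. The remodeller readers brd7 (of PBAF) and brd9 (of ncBAF) both fell in spermatids, brd7 (log2 fold change −1.43, SE 0.22, adjusted p = 1.5e-05) and brd9 (log2 fold change −1.91, SE 0.18, adjusted p = 4.5e-08).

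**Figure D5:**
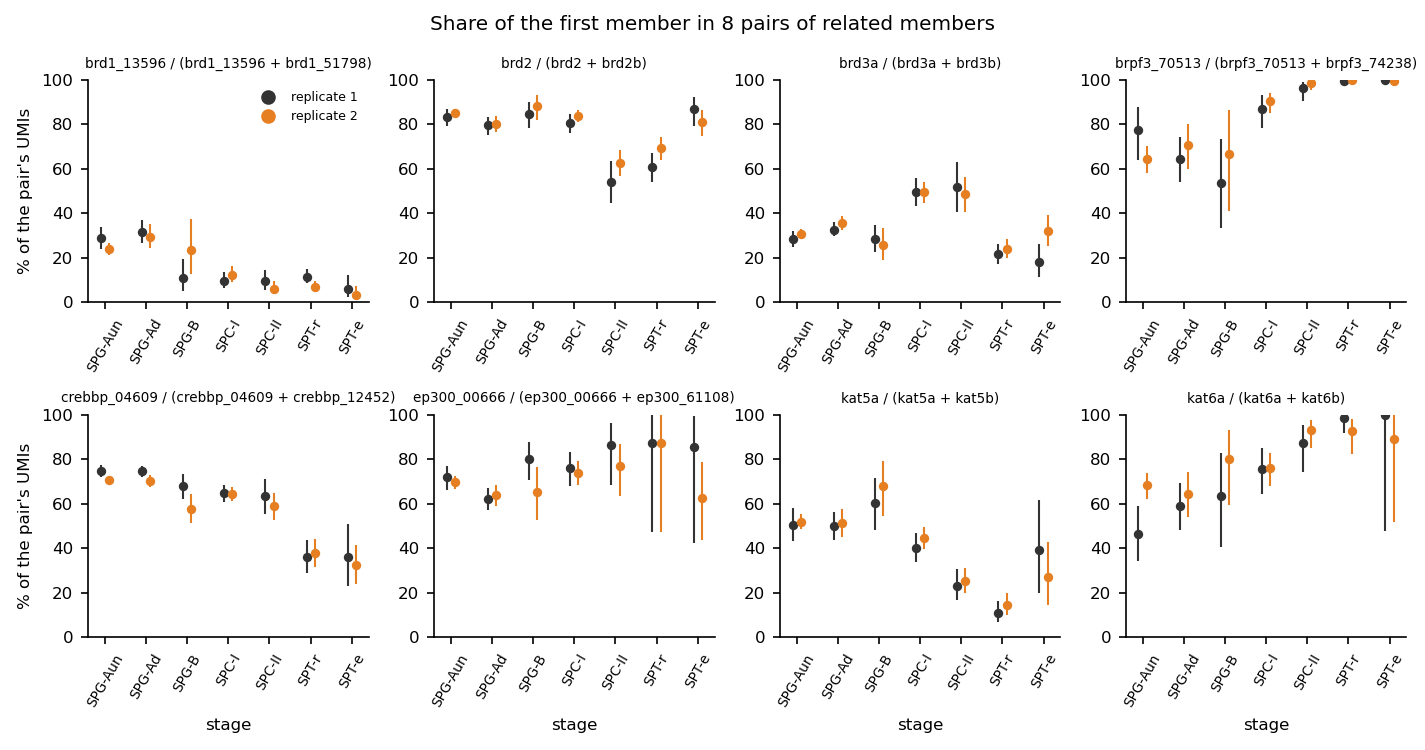
Share of the first gene in the UMIs of 8 pairs of related genes (y axes, percent, 0 to 100) by stage (x axes), with 1 point per replicate and exact 95% binomial intervals that cover counting error only. brpf3_70513 goes from 70.9% to 99.8%, crebbp_04609 from 72.7% to 34.1% and kat5a from 51.2% to 12.6% in SPT-r.

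Along the lineage, 5 narrower comparisons called 0, 13, 6, 16 and 8 of the 50 genes. They do not cover every step, since SPG-B was tested neither against SPG-Ad nor alone against SPC-I. Levels differed there in both directions. From SPG-Ad to SPG-B hdac1 went from 391 ± 1.77 to 130 ± 6.14 CPM and brd8_25071 from 91.5 ± 1.51 to 149 ± 28.9 CPM. Between SPG-Aun and SPG-Ad edgeR called 0 genes in either direction (background 0.734% higher and 0.193% lower), with 1 gene at an unadjusted p under 0.05 and 0 called by DESeq2. In replicate 2 this split rests on transferred labels, with 1120 cells in SPG-Aun and 353 in SPG-Ad, against 308 and 292 in replicate 1. In SPC-I against the spermatogonial mean 5 rose and 8 fell, that is 10.0% and 16% against backgrounds of 21.3% and 19.4%. In SPC-II against SPC-I 2 rose and 4 fell (4% and 8%, backgrounds 11.7% and 11.7%). The 4 that fell, kat2a, hat1, kat14 and ep300_61108, were acetyltransferases, as were 18 of the 50 genes tested. Of these calls, hat1, kat14 and ep300_61108 were lost under some alternatives, ep300_61108 at a mitochondrial limit of 2.5%. In SPT-r against SPC-II 5 rose and 11 fell (10.0% and 22.0%, backgrounds 13.7% and 7.56%). Among the 11 were brd8_25071, brd9, ep400, both ep300 genes, hat1, kat7, sirt5, hdac1 and hdac3, and the 5 were brpf3_70513, brd3b, hdac11, hdac12 and sirt7. In replicate 2 alone, where no test is possible, 6 of these 16 log2 fold changes came inside the limit: brd8_25071 (−0.93), brd9 (−0.66), hdac1 (−0.96), hdac3 (−0.73), sirt5 (−0.92) and sirt7 (0.94).

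From SPT-r to SPT-e 5 rose and 3 fell (10.0% and 6%, backgrounds 10.3% and 9.86%). Among the 5 were the following, which had fallen at an earlier step: ep300_00666 (log2 fold change 2.07, SE 0.40, adjusted p = 0.0013), ep300_61108 (log2 fold change 3.78, SE 0.81, adjusted p = 0.003), hdac1 (log2 fold change 1.16, SE 0.30, adjusted p = 0.0092) and kat14 (log2 fold change 1.46, SE 0.49, adjusted p = 0.036). They rest on few UMIs, with 13 for ep300_61108 in the SPT-e sums together, 12 of them in replicate 2. Without called doublets ep300_00666 (0.56, adjusted p = 0.60) lost the call, and in replicate 1 alone hdac1 came to 0.44, ep300_61108 to 1.33 and ep300_00666 to 1.43. For ep300_61108 the value of replicate 1 compares 1 UMI in SPT-r with 1 UMI in SPT-e, so it cannot show a rise. Genes of other stages moved in the same sums: ddx4 was at 102 and 123 CPM in SPT-r and 236 and 466 CPM in SPT-e, pcna at 26.5 and 30.3 against 101 and 197, sycp3 at 456 and 410.0 against 831 and 677, and the Leydig marker insl3 at 73.7 and 121 against 110.2 and 272, its highest stage. Their part in the 5 rises was not tested. Scaled to cell numbers instead of UMIs, ep300_00666, hdac1 and kat14 turned downwards, as the whole transcriptome did (median log2 fold change −2.66).

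Other parts of the machinery were described from 4 lists. Of 49 tested subunits of acetyltransferase complexes, 8 were higher and 25 lower in spermatids than in spermatogonia, that is 16.3% and 51% against 29.2% and 38.6% of all genes tested (median log2 fold change −1.13). Those with the largest changes were atxn7l3 (5.16, SE 0.44, adjusted p = 1.5e-08) and tada3 (2.87, SE 0.12, adjusted p = 1.2e-12), both of SAGA, and kansl1a (−3.32, SE 0.26, adjusted p = 5.5e-09) and phf20b (−3.08, SE 0.21, adjusted p = 8.7e-10), both of the NSL complex of Kat8. Of 45 subunits of deacetylase complexes, 8 were higher and 23 lower (17.8% and 51.1%, same backgrounds, median −1.27). There phf21a (6.97, SE 0.27) and rcor2 (4.43, SE 0.13), of the CoREST complex, rose from 1.7 and 35.3 CPM to 178 and 763 CPM, while brms1 of the Sin3 complex fell from 34.1 to 2.01 CPM (−4.04, SE 0.32) and cdk2ap1 of the NuRD complex from 10.4 to 0.89 CPM (−3.28, SE 0.69).

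Of 24 other bromodomain and YEATS readers, 3 were higher and 14 lower (12.5% and 58.3%, against backgrounds of 29.2% and 38.6%, median −1.35). baz2b rose from 0.79 to 133 CPM (log2 fold change 7.41, SE 0.29) and cecr2, a reader of a remodelling complex, from 33.7 to 778 CPM (4.74, SE 0.12), while bptf of the NURF complex fell from 82.4 to 11.3 CPM (−3.27, SE 0.21) and the YEATS reader mllt1 from 10.8 to 0.70 CPM (−3.52, SE 0.55). Of 13 genes of acetyl-CoA supply, 2 were higher, cratb (2.15, SE 0.18) and pdhb (1.57, SE 0.11), and 5 lower, among them crat (−3.35, SE 0.35) and acss2, the acetyl-CoA synthetase of nucleus and cytoplasm (−2.05, SE 0.26). The shares were 15.4% and 38.5%, so the lower share was at the background of 38.6%. The adjusted p-values of the genes named from the lists ran from 1.1e-15 for cecr2 to 3.9e-04 for cdk2ap1. All 4 medians lay below the −0.42 of all genes tested.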

How the data were processed

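Testes of 2 adult zebrafish samples were profiled by droplet single-cell RNA-seq. The authors aligned reads to danRer11 with Cell Ranger (7.2.0 in the submitters' processing notes, 6.1.2 in the matrix header) and deposited raw UMI counts per gene and cell for each replicate. The annotation release is not given in the sources used here. Symbols were matched to 29201 of 32520 identifiers.

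Cells with 200 to 7000 genes and up to 5% mitochondrial UMIs were kept (3018 of 3984 and 5104 of 5996 barcodes). Stages came from the study's cell annotation, of which the copy used here holds 1999 cells, all of replicate 1. Replicate 2 cells took the majority stage of their 15 nearest annotated cells in 30 principal components of 2000 variable genes, leaving out 221 genes (those reported, lists and markers). Left without a stage in replicate 2 were 1119 cells of 3 of 14 clusters (Leiden resolution 0.5) with under 5% of their weight from one replicate, and 166 nearest to unannotated cells. In replicate 1, 907 cells that passed the filters lay outside the barcode range of the annotation copy and were not used. A further 112 inside that range were unannotated. Scrublet called 2.52% and 1.92% of cells doublets, which were kept.

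UMIs were summed per stage and replicate and fitted with edgeR 4.0.16 (TMM, filterByExpr, 14 sums, stage as the only term), a model tested on simulated data. The members and lists were chosen with earlier results of these data known. Values in all 14 sums are printed for the 12 members of widest range, for paralog pairs that peak in different stages, and for hdac1, hdac3, sirt1, hat1, kat2a, kat8, ep300 and brdt, and list genes are the 2 with the largest change each way. The values of 1 member are not reported here, though the counts and sums over members include it. The replicate numbers pair the stage sums, since all sums of a number come from 1 library (correlations of replicate deviations between stages 0.0789 to 0.408). Counting intervals are exact at 95% and cover counting error only. Alternatives covered scaling, filter, tool, replicate block, fold limit, stage labels, doublets, mitochondrial limit and single replicates, and SPT-r alone was added after seeing the data.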

Additional observations from a re-analysis of the deposited data

How the results depend on the processing

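Counts of genes called higher or lower kept within 1.5 times their main value under transferred labels in both replicates, at least 12 votes, no SPG-B, SPT-r alone and the replicate block. Asking for 12 votes left 6 of 155 cells in SPG-B of replicate 2 and 261 of 1120 in SPG-Aun. The block ended no call, and added brd1_13596 in SPT-r against SPC-II (1.17, adjusted p = 0.013) and, in SPT-e against SPT-r, brd1_13596 (−1.28, adjusted p = 0.037) and hdac11 (1.05, adjusted p = 0.018), with 44 genes changed over the stages (main 42). It also added calls over all genes tested. Those higher in SPT-r went from 1844 to 1979, and those higher and lower in SPT-e from 1385 and 1330 to 1515 and 1490. The exceptions elsewhere were as follows. Scaled to cell numbers, SPC-I against spermatogonia gave 1 higher and 17 lower (main 5 and 8), SPC-II against SPC-I 9 and 1 (main 2 and 4), SPT-e against SPT-r 0 and 43 (main 5 and 3), and spermatids against spermatogonia 3 and 37 (main 11 and 22). Without the fold limit, 11 were higher in SPC-I, 6 higher and 13 lower in SPC-II, 9 higher in SPT-r and 6 lower in SPT-e. The same counts over all 13485 genes tested were 4103, 2237 and 2232, 2396, and 1772. In SPC-II, 2 were lower with no filter, 7 without called doublets, and 1 higher and 2 lower at a mitochondrial limit of 2.5%. Over all genes these counts were 1549 of 26513, 1868 of 13453, and 1399 and 1331 of 13292. In SPT-e against SPT-r RLE size factors gave 8 higher and DESeq2 8, with 2065 and 2042 of all 13485 genes higher. On the cell scale, SPT-e against SPT-r turned for ep300_00666 (−0.58), hdac1 (−1.52) and kat14 (−1.19), and spermatids against spermatogonia for brd2b (−0.52), brpf1 (−0.69), hdac12 (−0.50), kat5b (−0.73), ncoa3 (−0.67) and sirt6 (−0.65). By construction this scale counts UMIs per cell. Over all genes tested it moved the higher and lower calls from 2875 and 2621 to 1683 and 4633 in SPC-I, from 1573 and 1578 to 2851 and 824 in SPC-II, from 1844 and 1020 to 1315 and 1853 in SPT-r, from 1385 and 1330 to 209 and 10941 in SPT-e and from 3937 and 5200 to 2021 and 8907 in both spermatid stages, while RLE gave 2065 and 775 in SPT-e. With 1 replicate left there is 1 sum per stage and no test. Of 72 single-gene fold changes, 61 stayed past the limit without replicate 1 and 68 without replicate 2. Depth limits SPT-e most, where 3 counts are 4.32 and 1.98 CPM.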

Other observations

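Of the replicate 2 cells, 1119 lay in 3 clusters that replicate 1 hardly entered and were given no stage. Of the 53 genes, 50 had levels there within the range of the stages of replicate 2, by plain CPM with exact counting intervals. The others were crebbp_12452, one of the CBP genes, at 93.0 CPM (84.3 to 102) against at most 83.6 CPM (67.8 to 102) in SPG-B, hdac9b at 3.30 CPM (1.85 to 5.44) against at most 2.77 CPM (1.98 to 3.77) in SPG-Aun, and brd2 at 76.0 CPM (68.2 to 84.5) against at least 76.2 CPM (65.1 to 88.7) in SPC-II. The intervals overlapped for all 3 genes. These cells have no counterpart in replicate 1, so the values have no replicate.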
